A study of Mus musculus with 2 samples.

Results

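Dapl1, Fam46a, Nupr1, Msi2, Tmod2, Cox6a2 and Pappa2 are 7 genes chosen by symbol because their transcripts were more abundant in β cells of the HFD library than in those of the CD library. All 7 were found among the 31053 genes of the files. The study profiled single cells from the islets of 13-week-old C57BL/6J mice, to find α, β and δ subpopulations in prediabetes induced by a high-fat diet (HFD). The group compared with it is CD, and the labels give no long form of that name. Each group has 1 library (10x Genomics 3' v3), and the sources used here do not say how many mice went into it. With 1 library on each side nothing below could be checked against replicates, so the values describe 2 libraries rather than 2 diets.

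β cells release insulin, and in obesity they are known to meet a larger demand by making more of it, which loads their secretory pathway and their mitochondria. The 7 genes belong to different parts of the cell. Nupr1 encodes a small stress-induced chromatin protein and is a known target of the transcription factor ATF4. Msi2 encodes an RNA-binding protein that controls translation, and Fam46a (also named Tent5a) a noncanonical poly(A) polymerase that lengthens mRNA tails. Tmod2 encodes a tropomodulin, which caps the pointed ends of actin filaments. Cox6a2 encodes the muscle-type form of a subunit of cytochrome c oxidase, the last enzyme of the respiratory chain. Pappa2 encodes a secreted metalloprotease that cleaves IGF-binding proteins and so releases IGF. Dapl1 encodes a small protein related to death-associated protein.

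Since the genes were chosen for moving together, the 250 bases before their transcription starts were searched on both strands for 10 short motifs. RefSeq (GRCm38.p6) gave a start for 6 of the 7 genes, matched by symbol, with Fam46a under Tent5a. Only the letters were compared, so a match is not a binding site. The 4 windows below hold the match of an ATF4 composite element (TGATGNAA), a cAMP response element (TGACGTCA) or a TATA box (TATAAA), shown in capitals. They are printed 5′ to 3′ on the strand of the gene, and where RefSeq has several starts the first is shown.
Nupr1, chr7:126625471-126625720, minus strand: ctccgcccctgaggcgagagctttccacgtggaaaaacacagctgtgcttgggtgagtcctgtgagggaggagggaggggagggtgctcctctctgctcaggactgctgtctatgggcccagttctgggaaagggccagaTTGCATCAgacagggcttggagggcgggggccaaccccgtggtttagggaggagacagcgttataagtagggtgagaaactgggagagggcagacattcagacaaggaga
Msi2, chr11:88718278-88718527, minus strand: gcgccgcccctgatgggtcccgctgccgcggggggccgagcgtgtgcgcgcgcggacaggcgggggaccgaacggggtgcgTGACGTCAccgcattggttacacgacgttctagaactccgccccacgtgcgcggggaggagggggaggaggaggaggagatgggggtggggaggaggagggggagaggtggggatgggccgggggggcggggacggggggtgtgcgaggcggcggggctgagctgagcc
Dapl1, chr2:59484403-59484652, plus strand: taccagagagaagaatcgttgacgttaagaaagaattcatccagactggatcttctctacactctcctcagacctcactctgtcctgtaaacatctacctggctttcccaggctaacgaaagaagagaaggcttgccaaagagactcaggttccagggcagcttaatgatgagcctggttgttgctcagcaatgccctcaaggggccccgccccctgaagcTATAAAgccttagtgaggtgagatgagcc
Fam46a, chr9:85327151-85327400, minus strand: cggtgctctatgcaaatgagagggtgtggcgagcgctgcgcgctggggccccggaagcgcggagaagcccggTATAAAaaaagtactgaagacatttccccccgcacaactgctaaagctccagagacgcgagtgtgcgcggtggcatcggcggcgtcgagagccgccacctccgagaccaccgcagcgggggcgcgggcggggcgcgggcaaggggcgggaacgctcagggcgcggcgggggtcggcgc

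The 4 windows differ from one another in their matches. The ATF4 composite element was matched in Nupr1 alone, read on the opposite strand, from 110 bases before the start. It occurs in 3.45% of the 32851 RefSeq windows of this length. The cAMP response element was matched in Msi2 alone, from 169 bases before the start, and occurs in 1.55% of all windows. The TATA box was matched in Dapl1 from 29 bases before the start and in Fam46a from 178 bases before it, and occurs in 12.4% of windows. The windows of Tmod2 and Pappa2 held none of these 3 motifs. Of the other motifs, the E-box (CANNTG, in 66.2% of all windows) was matched in 5 genes, Fam46a, Nupr1, Msi2, Tmod2 and Pappa2. The GC box (GGGCGG, 32.7%) was matched in Dapl1, Fam46a, Nupr1 and Msi2, and the CCAAT box (CCAAT, 33.8%) in Msi2 and Pappa2. The Maf site (TGCTGA, 16.1%) was matched in Dapl1, the STAT site (TTCNNNGAA, 7.02%) in Nupr1, and the AP-1 site (TGANTCA, 6.75%) in the second window of Tmod2. The ER stress element (0.113%) was matched in none of the 6 genes. In base composition the genes also differ, with 75.6% G and C in the Msi2 window, 70% in Fam46a, 59.2% in Nupr1, 55.6% in Tmod2, 50% in Dapl1 and 49.2% in Pappa2, beside a median of 52.4% over all windows.

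The genes lie apart in the genome, on chromosomes 1, 2, 7, 9 and 11 (GENCODE M21, GRCm38). Nupr1 (126623249 to 126630861) and Cox6a2 (128205435 to 128206387) are both on chromosome 7, and Tmod2 (75565621 to 75611325) and Fam46a (85320439 to 85327348) both on chromosome 9. Dapl1 spans 59484653 to 59505020 on chromosome 2, Msi2 88339382 to 88718513 on chromosome 11 and Pappa2 158711727 to 158980490 on chromosome 1. The gene spans run from 0.953 kb for Cox6a2 to 379 kb for Msi2. Cox6a2 lies whole inside the integrin gene Itgad, which is on the opposite strand. Itgad had 4 UMIs in CD β cells and 3 in HFD β cells.

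The files hold 265836346 UMIs for CD and 271527648 for HFD, of which 9667 and 12062 barcodes were kept as cells, with 26 barcodes kept in both libraries. β cells had at least 30% of their UMIs on Ins1 and Ins2, α cells at least 10% on Gcg, δ cells at least 3% on Sst and PP cells at least 20% on Ppy. Cells meeting 2 rules, 144 in CD and 143 in HFD, were left out. This gave 6515 and 7433 β cells, with a median of 26671 and 24050 UMIs. It gave 1272 and 2005 α cells (9441 and 7668 UMIs), 570 and 662 δ cells (6442 and 4781 UMIs) and 328 and 535 PP cells (15780 and 10985 UMIs). All 6 β markers (Mafa, Nkx6-1, Slc2a2, G6pc2, Ucn3 and Pdx1) had UMIs in the β cells, from 33.95 to 330.3 CPM in CD and from 36.28 to 566.3 CPM in HFD, unscaled by TMM. The α, δ and PP cells likewise held all of their own markers in both libraries. Holding UMIs does not set a class apart, since α, δ and PP cells also held all 6 β markers. By level, the sum of each list was highest in its own class, mostly through Ttr (α), Rbp4 (δ) and Pyy (PP). Some single markers were not, such as Pdx1, at 62.5 CPM in CD δ cells beside 33.95 in β cells. Fxyd6, a PP marker, stood at 56.6 CPM in CD PP cells beside 104 in β cells. The libraries differ in the median share of UMIs on mitochondrial genes in β cells, 2.70% in CD and 3.78% in HFD. All 9 acinar markers summed to 37.3 CPM in CD β cells and 11.4 CPM in HFD β cells, on the same unscaled basis. The sums of all 7 endothelial markers (12.7 and 31.4 CPM), all 8 macrophage markers (33.9 and 53.0 CPM) and all 6 α markers (970 and 1666 CPM, mostly Ttr) and all 4 erythroid markers (12.8 and 44.001 CPM) were higher in HFD β cells, and their part in the ratios below was not tested.

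In β cells each of the 7 genes was more abundant in HFD, as their choice requires. Levels are in CPM, UMIs scaled to a common total and corrected by a trimmed mean (TMM), which allows for the share that hormone transcripts take. For scale, 9.19% of the 13994 genes measured in β cells were at least 1.5-fold higher in HFD, where all 7 of these genes lie by selection, and the median log2 ratio of all genes was 0.019. CD β cells held 60.1 CPM of Dapl1 and HFD β cells 270.2 CPM, a ratio of 4.49 (95% counting interval 4.38 to 4.61). Pappa2 stood at 11.8 and 50.1 CPM, a ratio of 4.23 (3.999 to 4.48). The ratio was of like size for Cox6a2, at 16.0 and 58.9 CPM (3.68, from 3.51 to 3.87). Fam46a followed with 35.4 and 119 CPM (3.37, from 3.26 to 3.49). The other 3 genes had smaller ratios. Nupr1 stood at 116 and 274 CPM (2.36, from 2.31 to 2.40) and Msi2 at 71.0 and 153 CPM (2.16, from 2.11 to 2.22). The smallest ratio was that of Tmod2, at 88.7 and 181 CPM (2.04, from 1.99 to 2.08). Ranked by ratio among the 13994 genes the 7 lay between place 51 (Dapl1) and place 528 (Tmod2). Within counting error the neighbours Dapl1 and Pappa2 overlap in their intervals, and no other neighbours in this order do.

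**Figure D1:**
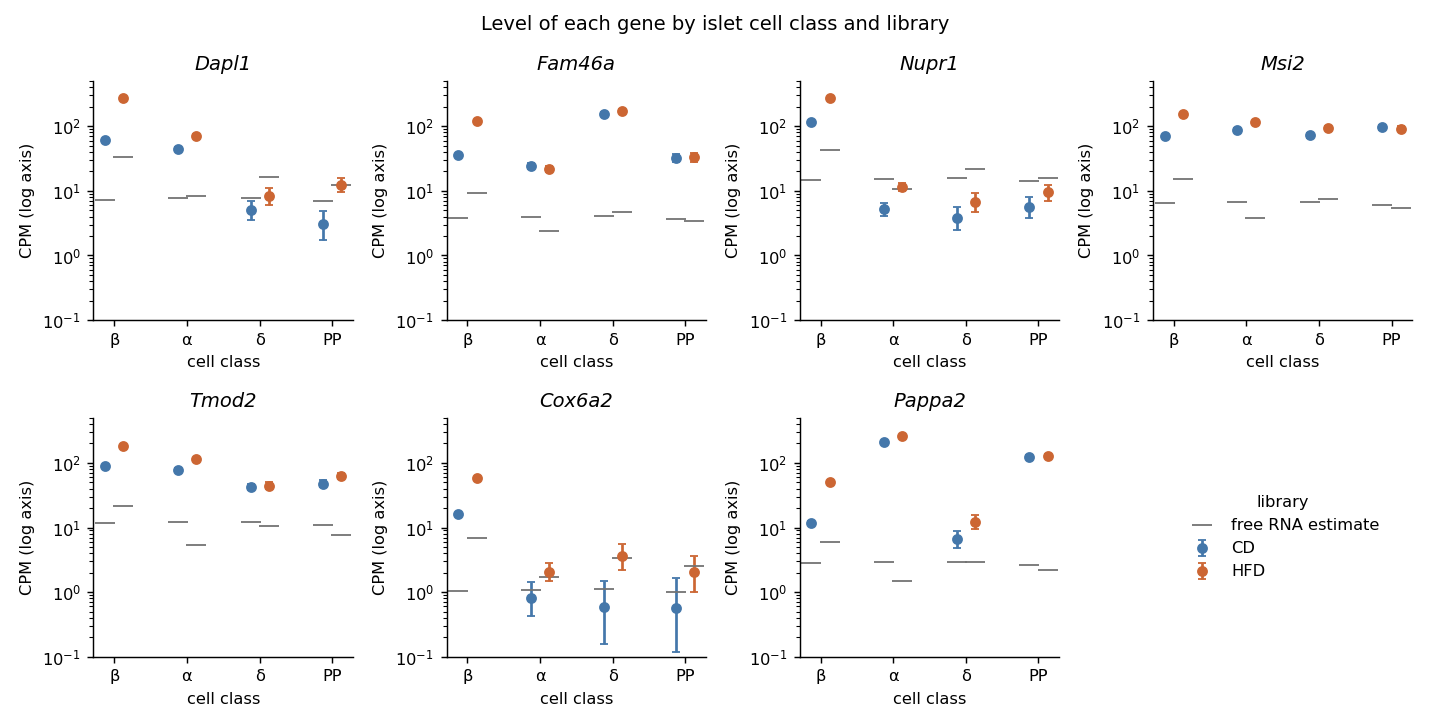
Level of each gene in CPM (log axis) in β, α, δ and PP cells of the CD and HFD libraries, with exact 95% Poisson intervals and grey bars at the level estimated for free RNA. The β cell points are higher in HFD for all 7 genes, Fam46a is highest in δ cells and Pappa2 in α cells, and Nupr1 and Cox6a2 stand far above the free RNA estimate in β cells, by 6.37 times or more, and at 1.20 times it or less elsewhere.

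The share of β cells with a UMI was compared after each cell was thinned to 10000 UMIs, which left out 748 CD and 572 HFD cells and kept 5767 and 6861. Dapl1 was detected in 28.9% (27.7 to 30.1) in CD and 62.5% (61.3 to 63.6) in HFD. Tmod2 was detected in 41.9% (40.7 to 43.2) and 63.4% (62.3 to 64.6), and Msi2 in 35.3% (34.1 to 36.5) and 59.1% (57.9 to 60.2). Nupr1 was detected in 29.8% (28.7 to 31.0) and 48.3% (47.2 to 49.5), and Fam46a in 18.4% (17.4 to 19.4) and 43.4% (42.2 to 44.6). The rarer genes were Cox6a2, at 7.84% (7.16 to 8.56) and 23.4% (22.4 to 24.4), and Pappa2, at 5.69% (5.10 to 6.32) and 19.6% (18.7 to 20.6). Before thinning the shares ran from 13.6% (Pappa2) to 71.0% (Tmod2) in CD and from 35.3% to 85.9% for the same genes in HFD.

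Both the share of positive cells and the number of UMIs in a positive cell were higher in HFD. For Pappa2 and Cox6a2 most of the difference lay in the share, which was 3.45 and 2.99 times as large in HFD, while positive cells held 1.17 and 1.18 times as many UMIs. Both are rare, at 0.069 and 0.28 UMIs per cell in CD and HFD for Pappa2 and 0.099 and 0.35 for Cox6a2. At such means most positive cells hold 1 UMI, so a higher level shows mainly as a larger share, whatever the gene. Dapl1, with 0.39 and 1.57 UMIs per cell, differed in both. Its share was 2.16 times as large, with 1.85 times as many UMIs per positive cell (2.52 in HFD and 1.36 in CD). For Fam46a these values were 2.36 and 1.30 times, for Nupr1 1.62 and 1.43, for Msi2 1.67 and 1.27, and for Tmod2 1.51 and 1.29. In CD 1.86% of β cells held 3 or more UMIs of Dapl1, and in HFD 19.8% did.

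The genes also differed in how evenly cells shared them. Msi2 and Tmod2 were close to a Poisson spread, in which the variance equals the mean. The ratio of variance to mean was 1.07 in CD and 1.14 in HFD for Msi2, and 1.05 and 1.18 for Tmod2. By this ratio, which can be larger for genes with more UMIs per cell, Nupr1 was the most uneven, at 5.28 in CD and 9.75 in HFD. A Poisson spread with its mean would put Nupr1 in 52.3% of CD cells and 82.0% of HFD cells, well above the 29.8% and 48.3% observed. The 10% of cells with the most Nupr1 held 66.3% of its UMIs in CD and 55.01% in HFD, and 1 HFD cell held 181 UMIs. By this measure the rarer genes were more concentrated, with 61.5% for Cox6a2 and 65.4% for Pappa2 in HFD. In CD it was 100% for both, since fewer than 10% of cells were positive. Dapl1 was nearer to Poisson in CD (1.37) than in HFD (3.57), where 1.38% of cells held 10 or more UMIs beside none in CD, which allows a share of up to 0.052%. Fam46a (1.24 and 1.56), Cox6a2 (1.66 and 1.62) and Pappa2 (1.38 and 1.64) lay between.

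**Figure D2:**
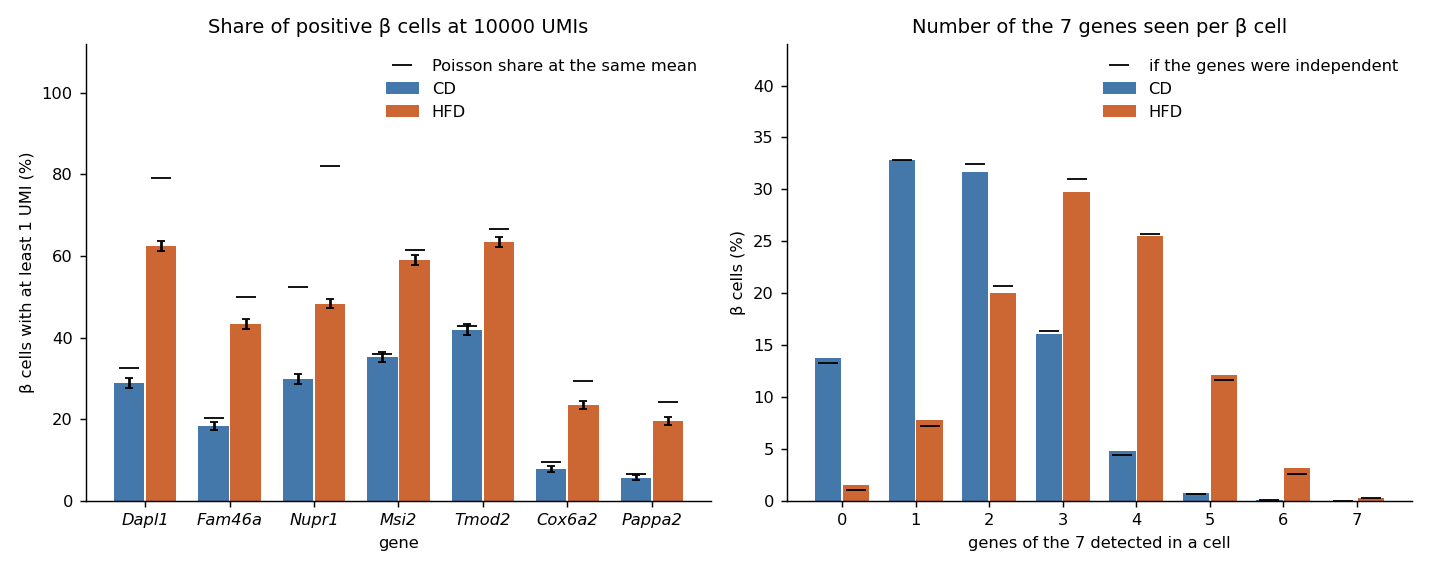
Left, share of β cells (%) with at least 1 UMI of each gene after thinning to 10000 UMIs, with exact 95% intervals and black bars at the Poisson share for the same mean. Right, share of β cells (%) in which 0 to 7 of the genes were seen, with black bars at the shares if the genes were independent: HFD cells centre on 3 genes and CD cells on 1 or 2, and both lie close to the black bars.

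Although the 7 genes were higher together in the HFD library, single β cells showed little tendency to hold them together. A CD cell held 1.68 of the 7 genes on average (SD between cells 1.10) and an HFD cell 3.20 (SD 1.29). If the genes were independent within each library the SD would be 1.08 and 1.24. None of the 7 was seen in 13.7% of CD cells, beside 13.3% under independence, and in 1.56% of HFD cells, beside 1.01%. At the other end, 6 or 7 genes were seen in 0.052% of CD cells and 3.37% of HFD cells, beside 0.0438% and 2.84%. Over the 21 pairs of genes the Pearson correlation of log(1 + UMIs) ran from -0.026 to 0.054 in 5767 CD cells, with a median of 0.0068. In 6861 HFD cells it ran from -0.074 to 0.085, with a median of 0.0063. All cells of a library share its preparation and were set to the same depth, and correlations of this size in sparse counts are no finding. The highest in HFD was between Dapl1 and Cox6a2, with 16.1% of cells positive for both beside 14.6% under independence. The lowest was between Dapl1 and Nupr1, with 29.7% beside 30.2%. When cells were thinned to 4000 UMIs outside hormone and mitochondrial genes, the Dapl1 and Cox6a2 pair reached 0.15 in HFD and 0.023 in CD.

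**Figure D3:**
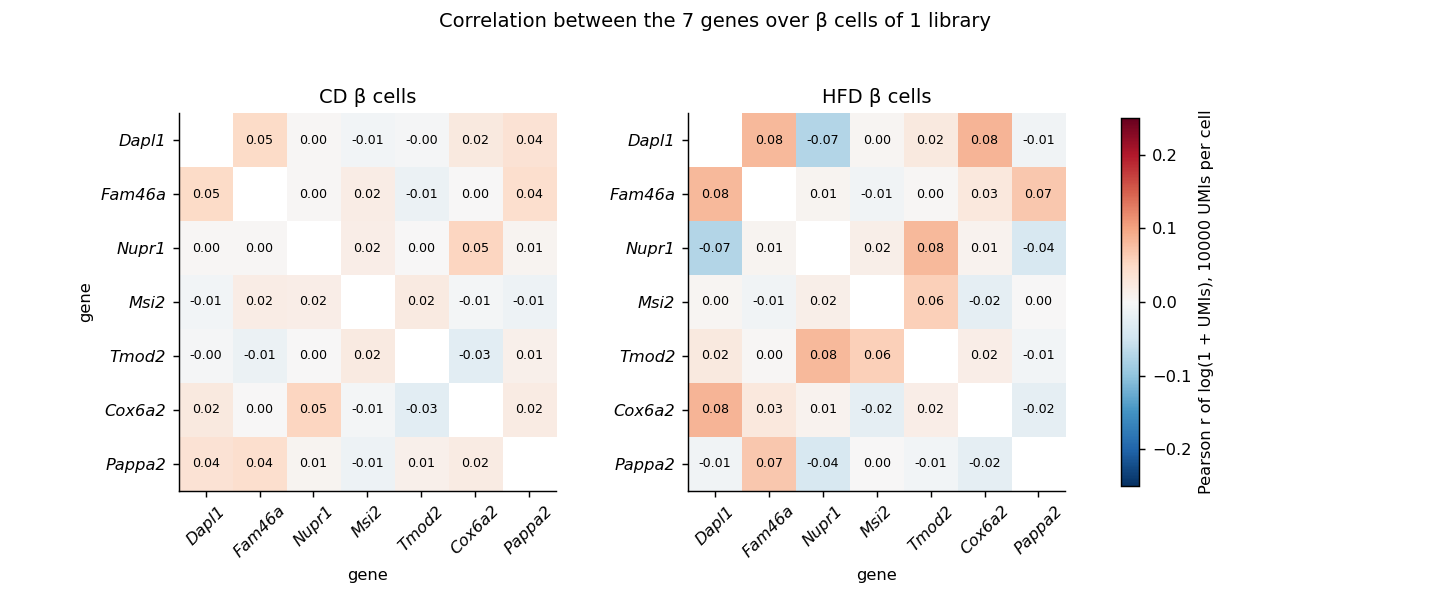
Pearson correlation of log(1 + UMIs) between each pair of the 7 genes over β cells of the CD library (left, 5767 cells) and of the HFD library (right, 6861 cells), at 10000 UMIs per cell. No value exceeds 0.085 in size.

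For each gene the 5 genes with the most alike pattern over β cells were ranked among 8991 genes, by the lower of the correlations in the CD and HFD cells. These values are descriptions over cells that share a library. The highest likeness of all was that of Nupr1 to Atf5, a stress-responsive transcription factor (r = 0.22 in CD and 0.24 in HFD). It was followed by the stress factor gene Ddit3 (0.14 and 0.13), the translation inhibitor Eif4ebp1 (0.12 and 0.14), the seryl-tRNA synthetase Sars (0.11 and 0.15) and the initiation factor Eif1 (0.12 and 0.11). Of the 23 ranked genes of a list of ATF4 and integrated stress response genes, 15 were among the 100 genes most alike to Nupr1, 65.2% of the list beside 1.11% of all ranked genes. The list was chosen with earlier results of these data known, so this count is a description and no test of a link. Mthfd2, Asns and Phgdh, enzymes of one-carbon, asparagine and serine synthesis, were ranked 6, 8 and 9.

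The genes most alike to Dapl1 were all genes of cell division. They were Cenpf (0.18 in CD and 0.15 in HFD), Stmn1 (0.16 and 0.13), Cenpa (0.16 and 0.13), Cks2 (0.16 and 0.13) and Mki67 (0.14 and 0.12). Cycling cells, with UMIs of at least 2 of 8 cell cycle genes at 10000 UMIs, numbered 246 in CD and 190 in HFD. The 8 genes were Mki67, Top2a, Cenpf, Birc5, Cdk1, Ccnb2, Ube2c and Nusap1. Since Mki67 and Cenpf were already named as alike to Dapl1, a higher Dapl1 share in cycling cells follows in part from that likeness. In CD Dapl1 was seen in 50.4% of cycling β cells (43.98 to 56.8) and 27.9% of the others (26.7 to 29.1). In HFD it was seen in 86.3% (80.6 to 90.9) and 61.8% (60.6 to 63.0). For the ratio, cycling cells were called by the same rule on all UMIs before thinning, so that call depends on depth. Leaving them out kept 6213 CD and 7194 HFD β cells. The Dapl1 log2 ratio in β cells was then 2.20, beside 2.17 with cycling cells. The Pappa2 shares in cycling and other cells were 12.2% (8.38 to 16.9) and 5.40% (4.82 to 6.03) in CD and 27.4% (21.2 to 34.3) and 19.4% (18.5 to 20.4) in HFD. Tmod2 went the other way, with 31.7% of cycling and 42.4% of other cells in CD and 47.4% and 63.9% in HFD. Cox6a2 was seen in 4.47% of cycling and 7.99% of other cells in CD and in 10.5% and 23.8% in HFD.

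Pappa2 was most alike to the glucagon gene Gcg (0.28 in CD and 0.20 in HFD), to the peptide gene Pyy (0.22 and 0.18), to the secreted peroxidase Gpx3 (0.19 and 0.17), to the transcription factor Etv1 (0.16 and 0.18) and to Cst3 (0.15 and 0.17). Gcg is the hormone of α cells, where Pappa2 was more abundant than in β cells. Pyy and Etv1 were higher in α, PP and δ cells alike than in β cells, and Pappa2 was low in δ cells. In the 5423 CD and 6373 HFD β cells with under 0.5% of UMIs on Gcg, Sst, Ppy and Pyy together, the log2 ratio of Pappa2 was 2.51, beside 2.08 in all β cells. For the other 4 genes no likeness reached 0.1 at the depth used for this ranking, and the names are given as descriptions alone. Cox6a2 was most alike to the transcription factor Mafa (0.079 and 0.14), Ins2 (0.077 and 0.12), the disulfide oxidase Ero1lb (0.076 and 0.17), Ins1 (0.056 and 0.12) and the cation channel Trpm5 (0.054 and 0.061). Fam46a was most alike to Chgb (0.082 and 0.097), Cst3, Eef1a1, Sst and Cd24a, Msi2 to Malat1 (0.086 and 0.085), Peg3, Srrm2, Calb1 and Prpf4b, and Tmod2 to Peg3 (0.054 and 0.074), Meg3, Rgs2, Prkacb and Tm9sf3. Peg3, an imprinted gene, was shared by Msi2 and Tmod2. Some names depended on the thinning. At 4000 UMIs outside hormone and mitochondrial genes, Peg3 was ranked 134 for Msi2 and 1 for Tmod2. Calb1 and Prpf4b were ranked 1159 and 549 for Msi2, Eef1a1 251 for Fam46a and Tm9sf3 807 for Tmod2. Chgb stayed at 1 for Fam46a and Malat1 was at 5 for Msi2. Ero1lb (0.127 in CD and 0.273 in HFD) and Trpm5 (0.102 and 0.118) were ranked 1 and 2 for Cox6a2.

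The other endocrine classes were not part of the choice of these genes, although free RNA of β cells reaches them. Markers of other cells moved with the library there too. Erythroid markers summed to 4.61 and 343.8 CPM in α cells, 4.04 and 32.6 in δ cells and 1.503 and 14.1 in PP cells of CD and HFD, unscaled by TMM. Endothelial markers summed to 36.5 and 97.9 CPM in α, 81.9 and 165 in δ and 18.7 and 37.2 in PP cells. Their part in the ratios of these classes was not tested. Cox6a2 and Nupr1 were near the floor outside β cells. Cox6a2 had 12 and 37 UMIs in α cells, 4 and 20 in δ cells and 3 and 11 in PP cells of CD and HFD, under the limit of 50 set for a measured gene. The Nupr1 level was 5.15 CPM in CD α cells and 11.4 CPM in HFD α cells, at 3.77 and 6.60 CPM in δ cells and at 5.65 and 9.50 CPM in PP cells. Free RNA was estimated to bring 15.5 and 10.8 CPM of Nupr1 to α cells, 15.9 and 21.5 to δ cells and 14.1 and 15.7 to PP cells, so its levels there, at 1.05 times the estimate or less, and their ratios are read as background. The estimate is rough, since it rests on 3 to 9 genes per class and library. In α cells those genes put the free RNA share anywhere from 5.36% to 84.0% in CD. The highest single gene gave 229% in CD δ cells, 205% in HFD δ cells and 136% in CD PP cells, more than a share can be. Readings against it are weakest in those classes.

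α cells held Dapl1 at 43.9 CPM (CD) and 71.7 CPM (HFD), a ratio of 1.63 (1.48 to 1.80), at 5.77 and 8.56 times its free RNA estimate. It was 1.37 times as abundant in β as in α cells in CD (1.26 to 1.48) and 3.77 times in HFD (3.56 to 3.99). In δ cells (5.07 and 8.21 CPM) and PP cells (3.02 and 12.5 CPM) it was at or under 1.03 times the free RNA estimate, and its PP ratio of 4.14 rests on 16 and 67 UMIs.

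Fam46a was highest in δ cells, with 156 CPM (CD) and 173 CPM (HFD), and differed little there (ratio 1.11, from 1.02 to 1.21). δ cells held 4.41 times the β cell level in CD (4.12 to 4.71) and 1.45 times in HFD (1.36 to 1.55). In α cells Fam46a stood at 23.9 and 22.0 CPM (0.92, from 0.80 to 1.07) and in PP cells at 32.4 and 33.0 CPM (1.02, from 0.82 to 1.26). No other endocrine class thus had a Fam46a ratio near the 3.37 of β cells.

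Pappa2 was highest in α cells, with 212 CPM (CD) and 260.5 CPM (HFD), a ratio of 1.23 (1.17 to 1.29). PP cells held 122.5 and 127 CPM (1.04, from 0.93 to 1.15). The α cell level was 17.9 times that of β cells in CD (16.8 to 19.0) and 5.20 times in HFD (5.01 to 5.41). δ cells held 6.67 and 12.3 CPM, at 2.24 and 4.14 times the free RNA estimate.

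Msi2 and Tmod2 were expressed in all 4 classes. Msi2 stood at 87.4 and 115 CPM in α cells (1.32, from 1.23 to 1.42), at 72.8 and 93.9 CPM in δ cells (1.29, from 1.14 to 1.46) and at 96.3 and 91.7 CPM in PP cells (0.95, from 0.84 to 1.08). In CD the β cell level of 71.0 CPM was the lowest of the 4 for Msi2, with an interval that overlaps that of δ cells, and in HFD the β cell level of 153 CPM was the highest. Tmod2 stood at 78.4 and 113 CPM in α cells (1.45, from 1.34 to 1.56) and at 42.2 and 44.3 CPM in δ cells (1.05, from 0.88 to 1.25). In PP cells it stood at 47.9 and 63.2 CPM (1.32, from 1.12 to 1.56).

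Counted over the classes, 2 of the 6 measured genes were at least 1.5-fold higher in HFD α cells (Dapl1 and Nupr1), beside 6.36% of 11098 genes. The Nupr1 call was lost, with a log2 ratio of 0.095 beside 1.15, when cells meeting several hormone rules were included, and its log2 ratio was 0.68 with at most 10% mitochondrial UMIs. In δ cells 3 of 6 were (Dapl1, Nupr1 and Pappa2), beside 5.43% of 9386 genes. With cells meeting several rules included Dapl1 alone remained there (Nupr1 0.21 and Pappa2 0.32 on the log2 scale). The δ cell call of Dapl1 was itself lost with at least 3000 UMIs per cell (log2 ratio 0.580) and with at most 10% mitochondrial UMIs (0.577). In PP cells 2 of 6 were (Dapl1 and Nupr1), beside 5.39% of 8752 genes. Both met the limit for a measured gene through the HFD library (16 and 67 UMIs for Dapl1, 30 and 51 for Nupr1). Pappa2 in δ cells did too (46 and 69 UMIs), so the place of these calls in the counts is no support. Of all the genes counted in α, δ and PP cells, Dapl1 in α cells alone was at 3 times the free RNA estimate or more in both libraries. None of the 6 was 1.5-fold lower in any of these classes, beside 3.45% of genes in α, 5.75% in δ and 3.51% in PP cells. The median log2 ratio of the 6 measured genes was 0.47 in α, 0.53 in δ and 0.23 in PP cells, and that of all genes 0.022, -0.053 and 0.0021.

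**Figure D4:**
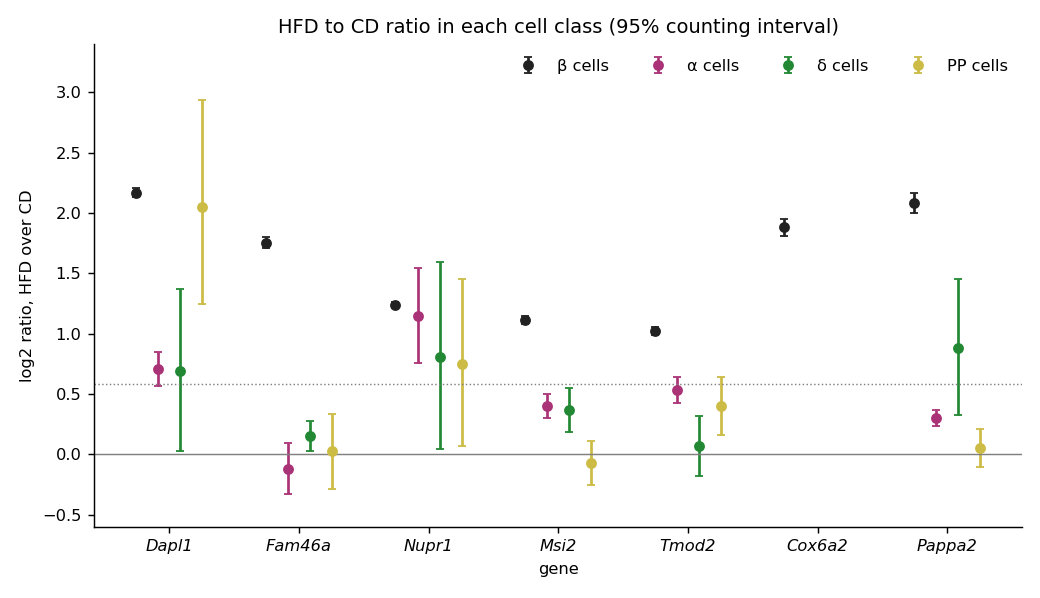
Log2 ratio of HFD over CD for each gene in β, α, δ and PP cells, with exact 95% intervals that cover counting error only. The dotted line marks 1.5-fold, and Cox6a2 is drawn for β cells alone because the other classes held under 50 UMIs. β cell points lie at 1.03 or more, while Fam46a, Msi2 and Tmod2 lie under the dotted line in the other classes.

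The share of positive cells in the classes was set side by side at 2000 UMIs per cell, where β cells left most of their UMIs to insulin (a median of 61.3% in CD and 63.0% in HFD). In α cells Pappa2 was seen in 37.9% (35.2 to 40.6) in CD and 41.4% (39.2 to 43.6) in HFD, and in 0.599% and 2.33% of endothelial-like cells, which had a median of 4446 and 4461 UMIs before thinning. In δ cells Fam46a was seen in 37.2% (33.1 to 41.3) in CD and 39.6% (35.8 to 43.5) in HFD. It was also seen in 36.3% and 33.2% of macrophage-like cells and in 4.49% and 6.40% of endothelial-like cells. Nupr1 was seen in 10.6% of CD β cells and 20.1% of HFD β cells, in 0.959% and 1.77% of α cells and in 3.59% and 6.40% of endothelial-like cells. Cox6a2 was seen in 1.88% and 6.20% of β cells and in 0.24% and 0.303% of α cells, and in 0 of 334 CD endothelial-like cells, which allows a share of up to 0.898%. Msi2 was seen in 21.6% and 26.7% of endothelial-like cells.

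Because the libraries differ in mitochondrial share, the β cell ratios were also taken within ranges of it. In the 4389 CD and 4174 HFD cells with 2 to 4% mitochondrial UMIs, the ratios were 4.77 for Dapl1, 5.42 for Pappa2, 3.92 for Cox6a2, 3.50 for Fam46a, 2.28 for Nupr1, 2.02 for Msi2 and 1.92 for Tmod2. They are thus as large or nearly as large as in all β cells. Over the 4 ranges the ratio of Dapl1 lay between 4.75 and 5.53, that of Msi2 between 2.02 and 2.31 and that of Tmod2 between 1.82 and 2.51. Nupr1 was the exception in direction. Under 2% mitochondrial UMIs the 873 CD cells held 145 CPM of it and the 56 HFD cells 109 CPM, a ratio of 0.75 (0.59 to 0.94), and above 6% the ratio was 3.12 (2.81 to 3.47). Pappa2 ran the other way, with a ratio of 9.17 (7.39 to 11.3) under 2% and 1.94 (1.499 to 2.54) above 6%.

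The ratios were also taken by insulin share and by depth. From 30 to 45% insulin to 65% or more, the Dapl1 ratio ran from 2.55 to 4.89 and that of Fam46a from 2.05 to 4.21. The Nupr1 ratio was 4.65 (4.15 to 5.22) at 30 to 45% and between 2.16 and 2.51 in the other ranges. Cox6a2 had its highest levels in cells with 65% insulin or more, 24.7 CPM in CD and 81.6 CPM in HFD, and Pappa2 in cells with 30 to 45%, 49.5 and 134 CPM. Over 4 ranges of UMIs per cell, every ratio of the 7 genes lay at 1.81 or more. In cells with under 0.1% of UMIs on acinar markers, 6428 in CD and 7422 in HFD, the ratios lay between 2.04 (Tmod2) and 4.49 (Dapl1). These are nearly all of the 6515 and 7433 β cells, so ratios close to those of all β cells were fixed in advance. The remaining 87 CD and 11 HFD cells had ratios from 1.73 (Nupr1) to 4.23 (Cox6a2). Their intervals were wide, up to 0.72 to 28.9 for Cox6a2.

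**Figure D5:**
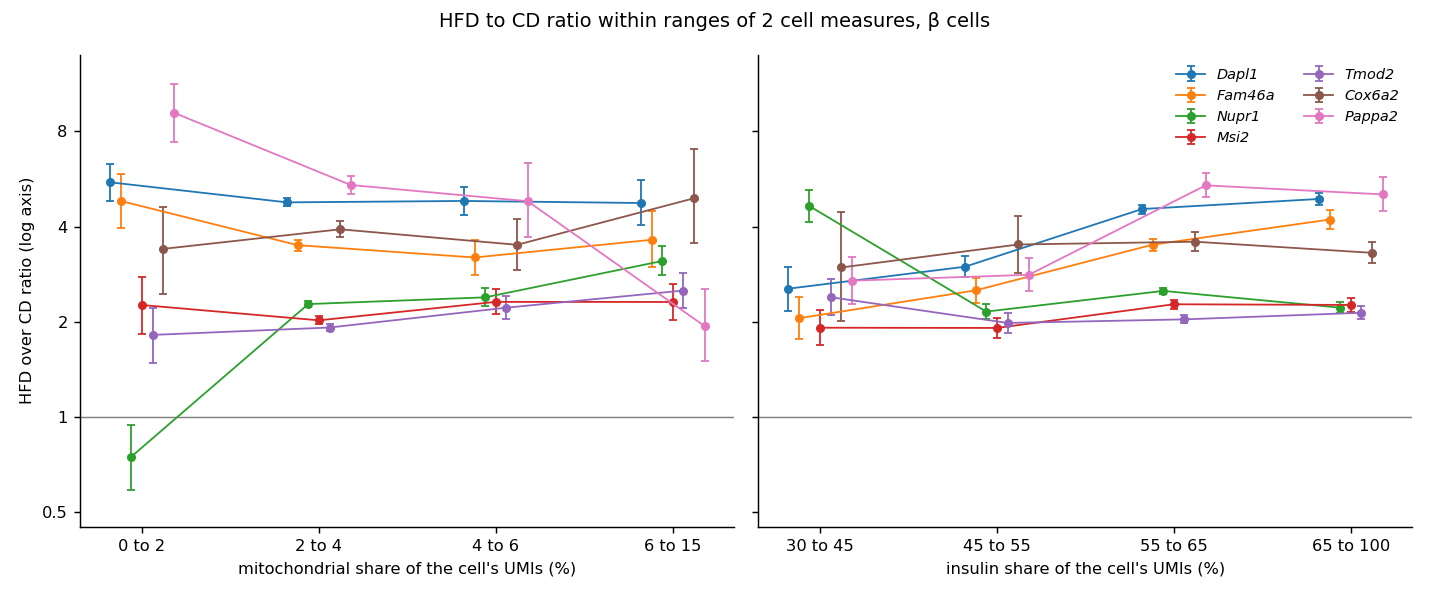
HFD over CD ratio of each gene (log axis) within 4 ranges of mitochondrial share (left) and 4 ranges of insulin share (right) of β cells, with exact 95% intervals that cover counting error only. All ratios lie above 1 except that of Nupr1 under 2% mitochondrial UMIs, where the HFD library has 56 cells.

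The measured relatives of the 7 genes differed less between the libraries in β cells. The 7 were chosen for being higher in HFD here and the relatives were not, so this contrast follows largely from the choice and is no support. Among the tropomodulins, Tmod1 had a ratio of 1.35 (19.5 CPM in CD and 26.5 in HFD) and Tmod3 1.15 (9.70 and 11.1). Cox6a1, the general form of the subunit, stood at 103 and 106 CPM, a ratio of 1.03 (1.00 to 1.05), and Nupr1l, a paralog of Nupr1, at 12.7 and 12.5 CPM, a ratio of 0.98 (0.91 to 1.05). Fam46c had a ratio of 1.26 (41.8 and 52.7 CPM) and Dap, the relative of Dapl1, 0.90 (113 and 102 CPM). Msi1 was lower in HFD, at 4.94 and 3.63 CPM, a ratio of 0.74 (0.65 to 0.83). Fam46d had a ratio of 1.92 (1.31 to 2.85) on 44 and 79 UMIs. Of the 14 paralogs 8 were measured, of which 1 was 1.5-fold higher, beside 9.19% of all genes, and none 1.5-fold lower, beside 5.25%. The higher one, Fam46d, met the limit for a measured gene through the HFD library, so its place in the count is no support. The protease gene Pappa had 8 and 17 UMIs.

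Nupr1 had a ratio of 2.36 in β cells and was chosen for being higher in HFD. The 15 stress response genes among the 100 most alike to it had ratios there from 0.67 (Ddit3, 54.1 and 36.3 CPM) to 1.45 (Phgdh, 12.4 and 18.0 CPM). Eif4ebp1 (0.74), Cebpb (0.76) and Vldlr (0.76) were also lower in HFD. Of 31 other ATF4 and integrated stress response genes 29 were measured, of which 3 were 1.5-fold higher in HFD, beside 9.19% of all genes, 3 were 1.5-fold lower, beside 5.25%, and 15 had a ratio above 1, with a median log2 ratio of 0.032. Atf5 stood at 107 CPM in CD and 94.7 in HFD (ratio 0.88), Atf4 at 141 and 129 CPM (0.92) and Sars at 141 and 148 CPM (1.06). Of the genes farthest from a ratio of 1, the transcription factor Atf3 had 2.98 (3.25 and 9.67 CPM), the serine synthesis enzyme Psat1 2.06 (2.39 and 4.92 CPM) and the kinase-like inhibitor Trib3 0.51 (4.51 and 2.28 CPM). The others past 1.5-fold, named after their values were seen, were the amino acid transporter Slc7a3 (2.62, from 27 and 66 UMIs), the glutathione-degrading Chac1 (0.56) and the secreted factor Gdf15 (0.56). Slc7a3 met the limit for a measured gene through the HFD library, where it is higher, so its place in the count is no support.

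Cox6a2, likewise chosen for being higher in HFD, had a higher ratio than the other measured nuclear subunits of its enzyme. Of 16 other nuclear cytochrome c oxidase genes 15 were measured, of which 3 had a ratio above 1. The median log2 ratio of the 15 was -0.18, beside 0.019 over all genes. Cox8a stood at 937 and 808 CPM (0.86), Cox6c at 470 and 410 CPM (0.87), Cox7c at 439 and 389 CPM (0.88), Cox7a2 at 409 and 336 CPM (0.82) and Cox6b1 at 307 and 257 CPM (0.84). Cox7a1, another muscle-type subunit, was lower at 4.38 and 2.28 CPM (0.52), and Cox4i2 was 1.57 times as high on 28 and 41 UMIs, named after its value was seen. The mitochondrially encoded subunits were higher in HFD, with ratios of 1.34 for mt-Co1, 1.35 for mt-Co2 and 1.72 for mt-Co3. How far the higher mitochondrial share of the HFD library enters these 3 ratios was not tested.

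Around Pappa2, 9 of 16 other genes of the IGF axis were measured in β cells, of which 3 were 1.5-fold higher, beside 9.19% of all genes, and 1 was 1.5-fold lower, beside 5.25%. The receptor genes Igf1r (59.4 and 62.4 CPM, ratio 1.05) and Igf2r (21.6 and 25.4 CPM, 1.18) and the binding protein gene Igfbp7 (130 and 108 CPM, 0.83) had the most UMIs. Those farthest from a ratio of 1 were Stc1, a stanniocalcin (5.68, from 26 and 138 UMIs), Igfbp3 (2.67, from 2.66 and 7.11 CPM) and Igfbp4 (3.59, from 20 and 67 UMIs). Stc1 and Igfbp4 met the limit of 50 UMIs through the HFD library, where they are higher, so their place in the count is no support. The one that was lower, named after its value was seen, was Igfbp5 (5.55 and 2.65 CPM, 0.48). Stanniocalcins are known inhibitors of this protease family, and the binding proteins are substrates of its members.

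Of 18 other genes of actin filaments and tropomyosin 17 were measured, with a median log2 ratio of -0.054. None was 1.5-fold higher, beside 9.19% of all genes, and 2 were 1.5-fold lower, beside 5.25%. The 2 were the actin genes Actb (498 and 327 CPM, ratio 0.66) and Actg1 (510 and 323 CPM, 0.63), and the actin-severing Cfl1 stood at 141 and 102 CPM (0.72), while the actin-binding peptide Tmsb4x was at 533 and 530 CPM (0.99). Of 18 other poly(A) tail enzymes and binding proteins 17 were measured. None was 1.5-fold higher or lower, beside the same 9.19% and 5.25% of all genes. Papola was at 0.97, Cnot6l at 1.11, Pabpc1 at 0.96, Pabpn1 at 1.38 and Papd5 at 1.28. Of 19 other neural and islet RNA-binding protein genes 17 were measured, with a median log2 ratio of 0.17. Of these, 2 were 1.5-fold higher, Nova1 (1.60) and Celf5 (1.98, from 105 and 194 UMIs), beside 9.19% of all genes. None was 1.5-fold lower, beside 5.25%. Ptbp3, a splicing regulator, stood at 140 and 207 CPM (1.48), Celf3 at 64.0 and 78.0 CPM (1.22) and Celf1 at 59.2 and 76.0 CPM (1.28).

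The genes were also counted in β cells with and without UMIs of Aldh1a3 or Cd79a. In HFD Cox6a2 was seen in 10.5% of the 181 cells with Aldh1a3 (6.44 to 15.9) and 23.8% of the 6680 without (22.7 to 24.8). CD had 4 cells with Aldh1a3, too few to compare, of which 25% held Cox6a2 beside 7.83% of the others. Cox6a2 was seen in 14.2% of the 791 HFD cells with Cd79a (11.8 to 16.8) and 24.6% of those without (23.5 to 25.7), and in CD in 5.92% of 2179 (4.97 to 6.995) and 9.002% of 3588 (8.09 to 9.99). Intervals were also apart for 3 other genes in HFD cells with and without Cd79a. Dapl1 was seen in 54.9% (51.3 to 58.4) beside 63.5% (62.2 to 64.7), Nupr1 in 42.9% (39.4 to 46.4) beside 49.1% (47.8 to 50.3) and Pappa2 in 14.03% (11.7 to 16.7) beside 20.3% (19.3 to 21.4). In CD the intervals of these genes with and without Cd79a overlapped. Dapl1 was seen there in 29.2% beside 28.7%, Nupr1 in 30.01% beside 29.7% and Pappa2 in 5.42% beside 5.85%. These intervals cover counting error among cells of 1 library.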

How the data were processed

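Transcripts were measured as UMIs (unique molecular identifiers) in 1 islet library for each of CD and HFD. The values the authors deposited are counts of UMIs for each gene in each barcode, not normalized. Per the submitters' processing notes the reads went through Cell Ranger 6.0.1 against mm10, while per the file headers software version 3.0.2 wrote the tables. The annotation release and the strand setting of the counting are not given in the sources used here. Every possible barcode is listed, so cells were selected here: at least 1500 UMIs, 500 genes or more, and no more than 15% of UMIs from genes of the mitochondrial genome (mt-). Cells meeting more than 1 hormone rule were left out of all classes. No doublet caller was used in the values reported, and scrublet scores (scanpy 1.11.5) were an alternative.

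For each class in each library the UMIs were added up and scaled to CPM with TMM factors over the 8 sums (edgeR 4.0.16, R 4.3.3). Ratios have exact 95% conditional binomial intervals, levels exact Poisson intervals and shares exact Clopper-Pearson intervals. All cover counting error only. With 1 library per group there was no test between the groups. A gene was measured in a class with at least 50 UMIs over both libraries. Thinning drew UMIs of each cell without replacement to 1 fixed number. Free RNA was profiled in barcodes with 10 to 100 UMIs. Its share in a class was the median, over foreign hormone and acinar genes with at least 50 UMIs there, of the class level over that profile. The scripts were tested on simulated data.

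The 7 genes and the related lists were chosen with earlier results of these data known. Of the related lists, the paralogs and, per list, the 3 genes with the most UMIs and the 3 with the interval bound farthest from 1 were named. For each of the 7 genes the 5 most alike genes were named. Likeness is the lower of the 2 libraries' Pearson correlations of log(1 + UMIs), over β cells thinned to 10000 UMIs, among named genes seen in at least 2% of cells in each library. Ribosomal protein, mt- and unnamed genes were left out. Positions are from GENCODE M21, which is on GRCm38 like mm10 and matched 99.6% of the identifiers.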

Additional observations from a re-analysis of the deposited data

How the results depend on the processing

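The log2 ratios of the 7 genes in β cells kept their sign in all 84 values under alternatives, from 0.957 to 2.51, but the genes were selected for this direction. Of the 84, 26 left the counting interval of the reported value. None of the 59 values for α, 58 for δ and 58 for PP cells reversed a ratio whose interval excluded 1. These numbers leave out Nupr1 in α cells and Dapl1 and Nupr1 in δ and PP cells with free RNA subtracted. There the subtraction left no level in at least 1 library, and so no ratio. All 28 differences in the share of positive β cells, over other depths and with doublet scores used, lay between 8.90 and 33.8 percentage points. With free RNA subtracted, 1 of the genes was 1.5-fold higher in δ cells, beside 3 as reported, and the counts of all genes were 1843 in α, 892 in δ and 878 in PP cells, beside 706, 510 and 472. With cells that meet several hormone rules included, 1 of the genes was 1.5-fold higher in δ cells. With total UMIs as the scale 298 genes were 1.5-fold higher in PP cells. At a fold of 2 the members counted were 1 in α, 0 in δ and 1 in PP cells, and all genes 547 in β, 171 in α, 85 in δ and 79 in PP cells, by construction fewer. With a limit of 200 UMIs the members counted were 0 of the 3 still measured in δ and 0 of the 4 in PP cells. The genes counted there before all fell under this limit, so these values of 0 were fixed in advance. All genes counted were 765 in β, 340 in α, 110 in δ and 109 in PP cells. With a limit of 1 UMI all genes counted were 3738 in β, 3064 in α, 2826 in δ and 2683 in PP cells, beside 1286 in β cells as reported. The cause of the changes with the classes, the scale and free RNA was not tested. Leaving out cells with other hormones or cycling cells was chosen after seeing the data. No paired analysis was possible because each group has 1 library. In δ and PP cells Dapl1, Nupr1 and Cox6a2 rest on 3 to 67 UMIs per library, which limits what can be said of them there.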
